A study of Homo sapiens with 8 samples.

Results

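The trefoil factors *TFF1* (ENSG00000160182), *TFF2* (ENSG00000160181) and *TFF3* (ENSG00000160180) are the 3 members described here, out of 36991 genes in the deposited expression table. They were chosen by their measured levels, because each was listed above 0 in the control cells and at 0 in the other lines. Their own levels are therefore given as a description and carry no test. The values are FPKM (fragments scaled by transcript length and by library depth) from poly A RNA sequencing of 8 cultures, 2 from each of 4 lines derived from the human cell line MDA-MB-231, a line from a breast tumour without hormone receptors or HER2 amplification. Control cells carried a scrambled shRNA, and KD cells an shRNA against *DAXX*, which encodes a histone chaperone and transcriptional regulator. WT OE cells overexpressed wild-type *DAXX*, and DSM OE cells a form with I7K/I733K changes that disable its SUMO-interacting motifs at either end. All 4 lines were made by lentiviral transduction and puromycin selection and grown in medium with bovine calf serum. The *DAXX* shRNA was driven by an H1 promoter and the tagged cDNAs by a CMV promoter. Each line stands for 1 selected population, and no empty-vector overexpression control was among these samples, so the line itself and its *DAXX* status cannot be told apart. The 6 libraries of KD, WT OE and DSM OE are called the altered libraries below.

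Trefoil factors are small secreted peptides built on the trefoil domain, a disulfide-bonded fold that resists proteases. They are released together with mucins, mainly onto the mucosal surface of the gut, and are known for supporting epithelial restitution after injury. *TFF1*, first described as pS2, is made by surface mucous cells of the stomach and is a classical estrogen-induced gene of breast cancer cells. *TFF2* is made by gastric mucous neck and gland cells, and *TFF3* by goblet cells of the intestine. In the breast, *TFF1* and *TFF3* are mostly associated with estrogen receptor-positive tumours, whereas MDA-MB-231 lacks that receptor. *ESR1*, the estrogen receptor alpha gene, was listed at 0 in all 8 libraries.

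The members form a cluster on chromosome 21 of GRCh38.p14. *TFF3* lies from 42311667 to 42315409, *TFF2* from 42346357 to 42350994 and *TFF1* from 42362282 to 42366535. The whole cluster spans 54.9 kb, with 30.9 kb between *TFF3* and *TFF2* and 11.3 kb between *TFF2* and *TFF1*.

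*TFF3* was the most abundant member, with an FPKM of 20.6 in control replicate 1 and 20.3 in control replicate 2. It was listed at 0 in each of the 6 altered libraries. In control, *TFF2* stood at 8.29 and 9.40 and *TFF1* at 7.03 and 7.16, and both were at 0 in every altered library. The control mean was 20.5 ± 0.186 (SD, n = 2) for *TFF3*, 8.85 ± 0.781 (SD, n = 2) for *TFF2* and 7.10 ± 0.0937 (SD, n = 2) for *TFF1*. The order of the levels in control was thus *TFF3*, *TFF2*, *TFF1* in both libraries, and no control value of *TFF2* overlapped those of *TFF1*. FPKM is scaled by transcript length, but how transcripts were combined per gene was not given. The ratios between members are therefore only approximate. *TFF3* stood at 2.93 and 2.84 times *TFF1* and at 2.48 and 2.16 times *TFF2* in the 2 control libraries. *TFF2* stood at 1.18 and 1.31 times *TFF1*. No fold change against the altered lines is read from these values, since a listed value of 0 sets no level. In bulk RNA, fewer cells that express a gene and less RNA in each cell cannot be told apart.

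**Figure D1:**
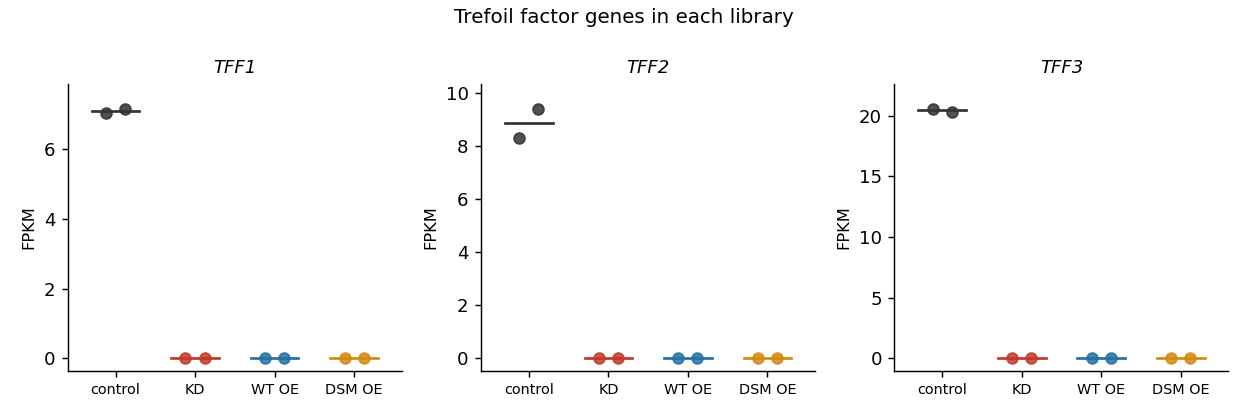
Deposited FPKM (vertical axis, linear) of *TFF1*, *TFF2* and *TFF3* in each of the 8 libraries, by line. Points are libraries and bars the mean of 2. The 2 control libraries stand near 7 for *TFF1*, between 8.29 and 9.40 for *TFF2* and near 20 for *TFF3*, and the 6 altered libraries lie at 0.

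The 2 control libraries differed by 1.29% of their mean for *TFF3*, by 1.87% for *TFF1* and by 12.5% for *TFF2*. For the 3987 genes with a control mean FPKM of 5 to 25, the median difference between the same libraries was 11.8%, with quartiles of 5.11% and 22.6%. *TFF1* and *TFF3* thus differed less between the control libraries than the middle range of genes at such levels, and *TFF2* about as much as the median gene. *TFF3* ranked 1557th and 1539th among all genes in the control libraries, above 90.1% and 90.3% of the genes listed above 0. *TFF2* ranked 3671st and 3264th, and *TFF1* ranked 4150th and 4027th. *TFF1* still exceeded 73.7% and 74.5% of the genes above 0. In the control cells, all 3 were thus in the upper part of the expressed genes.

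The listed zeros were compared with what the table holds for other genes. The longest transcript of *TFF1* has 492 bases, that of *TFF2* 631 and that of *TFF3* 867 in the GENCODE annotation. Among 7584 genes whose longest transcript has 300 to 1000 bases, 1185 to 1266 were above 0 in a library. Between 390 and 457 of these stood under an FPKM of 0.1, and their 5th percentile was 0.0148 to 0.0181. The table therefore holds values far below the control level of the members for transcripts as short as theirs. No gene was listed at 0 in any 1 library while standing at an FPKM of at least 5 in the other 7. The methods give the same nominal sequencing depth for every sample, but the mapped reads and the counts per gene are unknown, so no upper limit is set on the zeros. The summed FPKM was 162318 to 166886 per library.

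The members were picked as above 0 in control alone, so their order along the *DAXX* RNA level was fixed in advance and is only described. *DAXX* stood at 25.3 and 37.4 in the control libraries, at 8.60 and 7.30 in KD cells, 158 and 283 in WT OE cells, and 64.6 and 93.8 in DSM OE cells. The trefoil genes were at 0 in the 2 libraries with the lowest *DAXX* level and in the 4 with the highest, and above 0 in the 2 between them.

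Few other genes had the same pattern at such levels. Of 4777 genes that reached an FPKM of 5 in both control libraries, 3 were listed at 0 in all 6 altered libraries (0.0628%), and these were the members themselves. At a minimum of 1 in both control libraries there were 5 of 9128. The other 2 were *COX7B2*, which encodes an isoform of a cytochrome c oxidase subunit (5.33 and 4.09 in control), and *SBK3*, a predicted kinase gene (1.61 and 2.17). With any value above 0 in both control libraries, 100 of 14705 genes (0.68%) were at 0 in the rest. The mirrored count for the other lines, with a minimum of 5 in both libraries of the line, gave 0 of 4951 for KD, 0 of 4849 for WT OE and 0 of 4901 for DSM OE. At a minimum of 1, it was 1 for KD (*MIR3142HG*), 1 for WT OE (*PIK3CG*) and 0 for DSM OE. The opposite pattern, 0 in both libraries of a line and at least 5 in all others, was met by 0 genes in control and by 1 gene in KD, *VAT1L*. Since the members were picked for this pattern, these counts show how many genes share it and test nothing.

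The pattern extended from the trefoil cluster to its closest expressed neighbours, at much lower levels. *ABCG1*, which encodes a sterol efflux transporter, ends 14.4 kb before *TFF3*. The control libraries held 0.545 and 0.774 of it, and all 6 altered libraries were at 0. On the other side, *TMPRSS3*, a membrane serine protease gene, begins 5.36 kb after *TFF1*. Its control values were 0.0537 and 0.0129, with 0 in the rest. *SLC37A1*, a sugar phosphate exchanger gene that begins 104 kb after *TMPRSS3*, was at 0.312 and 0.357 in control. In the altered libraries *SLC37A1* was at most 0.00124, with 0.000428 in KD replicate 1, 0.00124 and 0.00100 in the WT OE libraries and 0 in the other 3. Of all genes above 0 in both control libraries, 0.68% were at 0 in all 6 altered libraries, as *ABCG1* and *TMPRSS3* were. The control values of *TMPRSS3* are too low to give its zeros weight. The remaining RefSeq genes between *ABCG1* and *SLC37A1* that the table holds, *RNA5SP492*, *UBASH3A*, *RNU6-1149P* and *RSPH1*, were at 0 in all 8 libraries.

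These neighbours were under the level needed for the main test, which took the 10465 genes that reached an FPKM of 1 in 2 or more libraries. The members passed that filter through the control libraries alone. In a fit without the filter, over 19241 genes on the log2(FPKM + 1) scale, *ABCG1* fell by 0.73 in the altered lines against control (limma, adjusted p = 0.00395). *SLC37A1* fell by 0.42 in the same fit (limma, adjusted p = 0.00063), and *TMPRSS3* differed by -0.05 (limma, adjusted p = 0.206). Of all genes in that fit, 2.31% were called lower and 1.88% higher. At such low values, the pseudocount of 1 holds these differences close to 0. The altered libraries, at or near 0, also added almost no spread to the fit of these genes. Their p-values therefore rest on the 2 control libraries and are not read as support for the stretch.

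Beyond this stretch, no tested neighbour was called, and the closest on either side overlapped control in at least 1 altered line. *ZBTB21*, a zinc finger gene that ends 189 kb before *ABCG1*, had control values of 2.02 and 1.17, against 1.35 and 0.895 in KD cells, 2.85 and 2.43 in WT OE cells, and 2.09 and 2.83 in DSM OE cells. *WDR4*, which encodes a subunit of a tRNA methyltransferase, is the next tested gene on the other side. It stood at 1.71 and 1.60 in control, 1.76 and 1.96 in KD cells, 2.07 and 1.70 in WT OE cells, and 1.38 and 1.20 in DSM OE cells. Between *SLC37A1* and *WDR4* lies *PDE9A*, a cyclic GMP phosphodiesterase gene, which was at 0.0346 and 0.237 in WT OE and at 0 in the other 6 libraries. *ZBTB21*, *WDR4* and *PDE9A* were singled out after their values were seen. *ZNF295-AS1*, the closest gene above 0 beyond *ABCG1*, was at 0.0627 in DSM OE replicate 2 and at 0 elsewhere. Lower levels than in control were not confined to the stretch. *MX1*, an interferon-induced antiviral gene near the far end of the 1 Mb window, was at 0.266 and 0.230 in control and at 0.00656 to 0.175 in the altered libraries.

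Of 35 genes of the table that start within 1 Mb of the cluster, 19 were above 0 in some library and 8 were tested. None of the 8 was called in the comparison of the 3 altered lines with control by limma, and 0 had an unadjusted p under 0.05. Over all tested genes, 3.49% were called higher and 3.36% lower. Log2 fold changes of the 8 ran from -0.02 to 0.22, the lowest adjusted p was 0.52 (limma), and their 95% intervals together ran from -0.37 to 0.65. Besides *ZBTB21* and *WDR4* these were *RIPK4*, *PRDM15*, *C2CD2*, *NDUFV3*, *PKNOX1* and *U2AF1*, of which *U2AF1* has a near-identical copy that can share its reads. Of the other 91 tested genes on chromosome 21, 9 were higher and 2 lower, with a median log2 fold change of 0.27, against 0.01 over all tested genes.

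**Figure D2:**
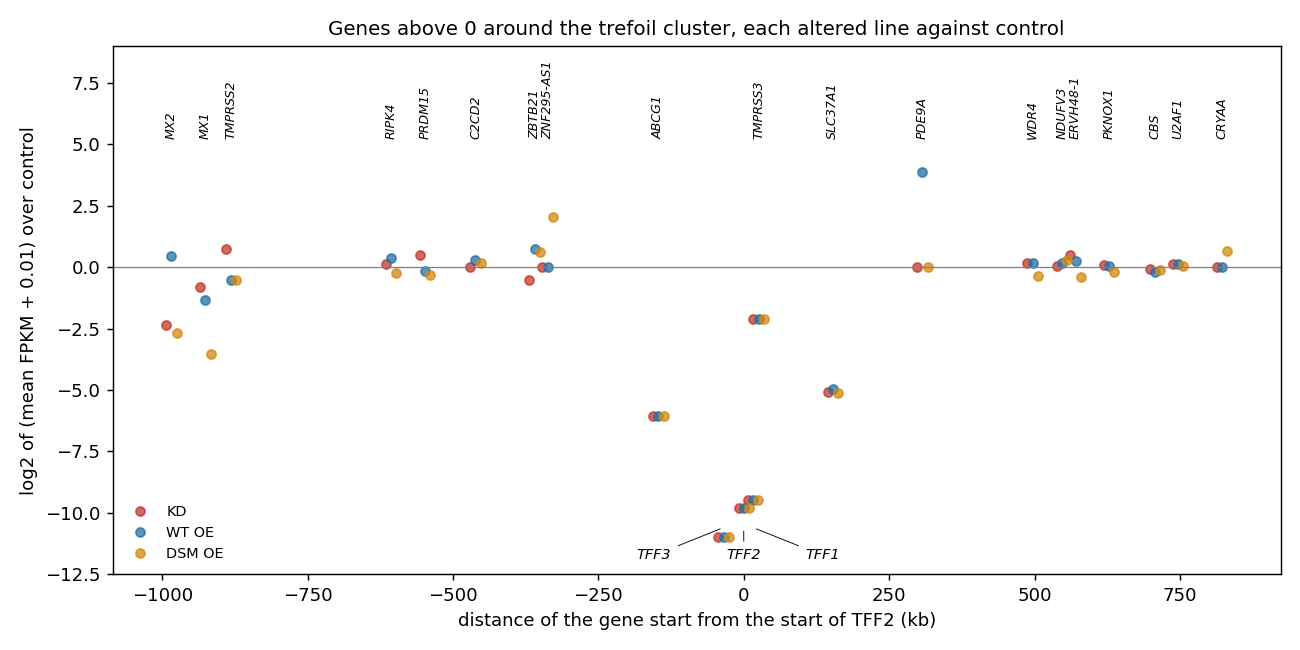
Log2 of the mean FPKM of each altered line over the control mean, with 0.01 added to both (vertical axis), for the 19 neighbours above 0 and the 3 members, by the distance of each gene's start from that of *TFF2* in kb (horizontal axis). Points of the 3 lines are set slightly apart. *ABCG1*, the trefoil genes, *TMPRSS3* and *SLC37A1* lie under 0 in all 3 lines, while the 8 tested neighbours lie near 0. *MX1*, at the far left, also lies under 0 in all 3 lines.

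To see whether such stretches occur elsewhere, 18302 genes above 0 in some library were placed in chromosome order. A gene counted as listed in 1 line if it was above 0 in both libraries of that line and if the mean of the other 6 libraries was at most 1% of the line's mean. This definition was made after the values around the cluster were seen. In control 114 genes met it (0.623%), and the longest run of consecutive genes was the stretch of 6 from *ABCG1* over the trefoil genes to *SLC37A1*, which covers 382 kb. The 3 members were picked for this pattern, so a control run of at least 3 was fixed in advance. The run lengths are therefore a description and test nothing. The second longest run in control had 2 genes. In KD 71 genes met the definition, with a longest run of 4, the overlapping serum amyloid genes *SAA2-SAA4*, *SAA4* and *SAA2* and the gene *RNA5SP333* over 17.2 kb of chromosome 11. In WT OE 43 genes met it with a longest run of 2, and in DSM OE 46 met it with no 2 in a row.

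Trefoil domains also occur in proteins encoded outside the cluster. Of 6 such genes, *MGAM2*, *SI*, *ZP1* and *ZP4* were at 0 in all 8 libraries. *MGAM*, a maltase-glucoamylase gene, did not exceed 0.00447. *GAA*, the lysosomal acid alpha-glucosidase gene, was the 1 member tested. Its control values were 8.36 and 8.05, against 12.5 and 9.50 in KD cells, 17.7 and 9.91 in WT OE cells, and 15.8 and 18.4 in DSM OE cells. All 6 altered values were above both control values, but the log2 fold change of 0.66 (standard error 0.22) did not pass the test (limma, adjusted p = 0.144). None of these 6 genes shared the members' pattern.

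Among transcription factors linked to trefoil genes, *SPDEF* had the largest difference of the 21 tested. SPDEF is an ETS factor of secretory epithelia, and in mice goblet cells depend on it to mature. Its control values were 55.8 and 64.4, against 18.4 and 17.2 in KD cells, 18.4 and 14.1 in WT OE cells, and 23.9 and 23.6 in DSM OE cells. The altered libraries did not overlap control and held 32.0% of its mean level. In the altered lines together *SPDEF* fell by 1.61 on the log2 scale (standard error 0.12, limma, adjusted p = 0.00267). Against control it fell by 1.70 in KD cells, by 1.83 in WT OE cells and by 1.30 in DSM OE cells, with adjusted p = 0.00321, 0.00542 and 0.00855 by limma. Over all tested genes, KD had 3.51% called higher and 3.69% called lower, WT OE had 2.49% and 2.62%, and DSM OE had 5.51% and 5.50%. *SPDEF* was still lower with each library left out (adjusted p up to 0.033, limma).

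Of 32 such factors, 21 were tested, with a median log2 fold change of -0.02. In the altered lines together 2 were called lower and 0 higher, against 3.36% and 3.49% of all tested genes. The other was *PPARG*, a nuclear receptor gene, at 7.35 and 6.24 in control against 2.43 to 4.60 in the altered libraries (log2 fold change -0.71, limma, adjusted p = 0.0433). That call was lost whichever library was left out (adjusted p 0.0506 to 0.206, limma) and in 3 of the other settings. *FOXA2*, a forkhead factor gene of gut and airway epithelium named here after its values were seen, had control values of 34.6 and 38.4 against 13.8 to 31.0 in the altered libraries. Its log2 fold change of -0.64 did not pass the test (limma, adjusted p = 0.159). *ESR1* and the gut factors *GATA4*, *HNF4A*, *CDX1* and *CDX2* were at 0 in all 8 libraries. The hypoxia factor gene *HIF1A* stood at 43.7 to 55.1 over all libraries.

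Secretory genes that accompany trefoil factors in mucosal cells were scarce in these lines. Of 22 listed genes, 11 were at 0 in all libraries, among them *MUC4*, *MUC16*, *AGR3*, *REG4* and *CLCA1*, and 2 were tested. *AGR2* encodes a protein disulfide isomerase of the endoplasmic reticulum that mucin production requires in the mouse gut. Both control libraries held 2.77, against 0.864 and 1.39 in KD cells, 0.452 and 0.764 in WT OE cells, and 0.538 and 0.502 in DSM OE cells, with no overlap. *AGR2* fell by 1.13 on the log2 scale in the altered lines together (standard error 0.13, limma, adjusted p = 0.0122). It passed the filter only through control, since KD replicate 2 alone reached an FPKM of 1 among the altered libraries. Without the filter, the adjusted p of *AGR2* was 0.0183 (limma). Against control it fell by 0.84 in KD cells, by 1.24 in WT OE cells and by 1.31 in DSM OE cells (limma, adjusted p = 0.0403, 0.0198 and 0.0109). The pooled call was lost without either control library (adjusted p = 0.0799 and 0.0846, limma). Of the separate calls, that in KD was lost whichever library was left out, with a pseudocount of 0.1 and without the filter (adjusted p = 0.084 and 0.0627 for the latter settings, limma), that in WT OE without a control or WT OE library, and that in DSM OE without a control library or DSM OE replicate 2. *LYZ*, the lysozyme gene, was the other tested member and was not called.

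A further 3 secretory genes, below the filter and chosen after their values were seen, were higher in both control libraries than in any altered library. *MUC1*, which encodes a membrane mucin, had control values of 0.816 and 0.720 against 0.00799 to 0.103 in the altered libraries. *SPINK4*, a protease inhibitor gene of goblet cells, was at 0.971 and 1.87 in control and did not exceed 0.350 elsewhere. *WFDC2*, which encodes a secreted whey acidic protein, had control values of 0.456 and 0.518 against 0.0189 to 0.241 elsewhere. Since they were picked for this order, no p-value is given for them. Not every secretory gene was lower. *LCN2*, which encodes the secreted iron-siderophore binder lipocalin, was at 0.689 and 0.780 in KD cells and at 0 in the other 6 libraries. *LYZ* was at 0.290 and 0.0230 in control and at 0 to 1.11 in the altered libraries, highest in both DSM OE libraries. Without the filter, 11 of the 22 genes entered the fit, and limma called 4 lower and 1 higher (*LCN2*). Over all 19241 genes of that fit, 2.31% were called lower and 1.88% higher. The 4 were *AGR2* and the picked *MUC1*, *SPINK4* and *WFDC2*, so the count adds no support. The summed FPKM of the 22 genes was 5.47 and 5.90 in control and 1.42 to 2.998 in the altered libraries.

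**Figure D3:**
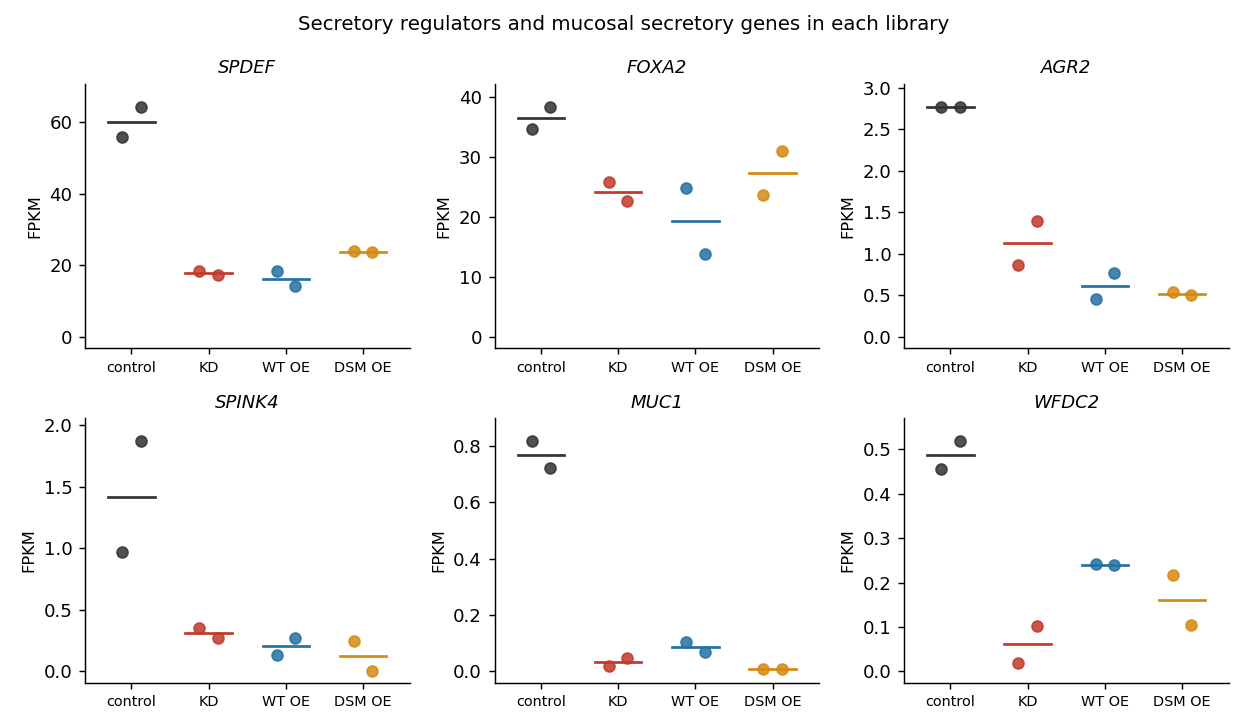
Deposited FPKM (vertical axes, linear, a scale per panel) of *SPDEF*, *FOXA2*, *AGR2*, *SPINK4*, *MUC1* and *WFDC2* in the 8 libraries, by line. Points are libraries and bars the mean of 2. In each panel both control libraries lie above all altered libraries, but none of the altered means of *SPDEF* or *FOXA2* is near 0.

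Mucins that carry trefoil peptides, *MUC2*, *MUC5AC* and *MUC6*, were at 0 throughout, as were the gastrokine genes *GKN1* and *GKN2* and the proposed receptor genes *ACKR3* and *LINGO2*. Of the 15 partners and proposed receptors, 5 were tested, 1 was called lower and 0 higher, with a median log2 fold change of -0.30. The shares over all tested genes were 3.36% lower and 3.49% higher. *F2RL3*, which encodes the thrombin receptor PAR4, was at 1.49 and 1.65 in control, 0.192 and 0.204 in KD cells, 0.927 and 1.19 in WT OE cells, and 0.445 and 0.720 in DSM OE cells. It passed the filter only through control, since WT OE replicate 2 alone reached an FPKM of 1 among the altered libraries. *F2RL3* fell by 0.71 on the log2 scale (limma, adjusted p = 0.024, or 0.0275 without the filter). That call was lost without either control library, either KD library or WT OE replicate 1 (adjusted p up to 0.142, limma). *CXCR4*, a chemokine receptor gene proposed to bind TFF2 and picked here by hand, stood at 4.10 and 4.03 in control. *CXCR4* was at 6.55 and 6.27 in KD cells, 5.31 and 6.07 in WT OE cells, and 2.67 and 2.29 in DSM OE cells. Both KD libraries and both WT OE libraries were above control and both DSM OE libraries below it.

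Markers of luminal and estrogen-responsive cells were called in both directions. Of 25, 17 were tested, 4 were called lower and 3 higher in the altered lines, with a median log2 fold change of -0.26. The shares over all tested genes were 3.36% lower and 3.49% higher. Besides *SPDEF*, *AREG*, *CTSD* and *IGFBP4* were lower, and *CA12*, *NRIP1* and *XBP1* were higher. These directions are those of the 3 lines averaged, and not every line shared them. *AREG*, the amphiregulin gene, was at 8.42 and 8.66 in control, 2.68 and 2.59 in KD cells, 5.09 and 4.40 in WT OE cells, and 13.3 and 11.4 in DSM OE cells, where both libraries were above control. *XBP1*, a stress-response factor gene, was at 32.1 and 33.3 in control, 30.9 and 32.1 in KD cells, 48.0 and 45.2 in WT OE cells, and 50.7 and 51.3 in DSM OE cells. *CA12*, a carbonic anhydrase gene, was at 0.468 and 0.587 in control and at 0.841 to 2.89 in the altered libraries. It passed the filter only through KD and DSM OE, since no control or WT OE library reached an FPKM of 1. The call of *CA12* therefore adds no support. The *AREG* call was lost without any library but DSM OE replicate 1, that of *XBP1* without any 1 of the 8 and that of *CA12* without either control library (adjusted p up to 0.174, limma). The counts were 2 lower and 1 higher without either control library. *IGFBP4*, which encodes a binding protein of insulin-like growth factors, was at 2092 and 2256 in control, 655 and 608 in KD cells, 1590 and 1438 in WT OE cells, and 1657 and 1728 in DSM OE cells. It fell by 0.89 on the log2 scale (limma, adjusted p = 0.00398). *CTSD*, an estrogen-induced lysosomal protease gene, had control values of 475 and 530 against 214 to 370 in the altered libraries, a log2 fold change of -0.89 (limma, adjusted p = 0.0232). The *CTSD* call was lost without either control or either KD library (adjusted p up to 0.149, limma). *NRIP1*, a nuclear receptor corepressor gene that also lies on chromosome 21, moved in the other direction. It was at 1.45 and 1.27 in control, 12.9 and 13.7 in KD cells, 1.74 and 1.90 in WT OE cells, and 2.42 and 2.16 in DSM OE cells, a log2 fold change of 1.12 (limma, adjusted p = 0.00355). *ESR1*, *PGR* and *PDZK1* were at 0 in every library.

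Markers of other cells that make trefoil factors were close to absent. Of 14 intestinal and gastric markers, 13 were at 0 in all 8 libraries, among them *VIL1*, *CDH17*, *KRT20* and *CLDN18*, and the summed level was 0 and 0.0121 in control and 0 in the rest. The 1 exception was *LGALS4*, listed at 0.0121 in control replicate 2. Of 9 prostate markers, *KLK2*, *KLK3*, *KLK4*, *FOLH1* and *HOXB13* were at 0 throughout and 0 of the 2 tested were called. That list summed to 4.10 to 6.68 in control, 8.87 to 9.71 in KD cells, 3.65 to 5.08 in WT OE cells and 3.35 to 4.43 in DSM OE cells.

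Of the 14 mesenchymal and basal markers listed for MDA-MB-231, 13 were above 0, and *CDH2*, the N-cadherin gene, was at 0 in all 8 libraries. Of these, 12 were tested, 3 were called higher and 0 lower in the altered lines, with a median log2 fold change of 0.14. Over all tested genes, 3.49% were called higher and 3.36% lower. *SNAI2*, which encodes a repressor of epithelial genes, was at 5.89 and 5.68 in control, 13.9 and 13.5 in KD cells, 8.66 and 8.81 in WT OE cells, and 7.44 and 6.65 in DSM OE cells (log2 fold change 0.63, limma, adjusted p = 0.0147). *ZEB1*, a repressor gene of the same programme, and *PLAUR*, the urokinase receptor gene, had log2 fold changes of 0.48 and 0.79 (limma, adjusted p = 0.038 and 0.0428). KD cells did not share the *ZEB1* difference (log2 fold change -0.05 against control, limma, adjusted p = 0.831). The *SNAI2* call was lost without either control library, that of *ZEB1* without any 1 of the 8 and that of *PLAUR* without any of 7, all but WT OE replicate 2 (adjusted p up to 0.205, limma). *VIM*, the vimentin gene, was at 682 to 1328 in 7 libraries and at 39.1 in KD replicate 1.

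Genes used by every cell were listed above 0 in every library. All 20 of them were tested, 2 were called lower and 0 higher, with a median log2 fold change of -0.21. The shares over all tested genes were 3.36% lower and 3.49% higher. *EEF2*, a translation elongation factor gene, and *TUBB*, a beta-tubulin gene, had log2 fold changes of -0.54 and -0.39 (limma, adjusted p = 0.0304 and 0.0349), and both calls were lost without either control library (adjusted p up to 0.202, limma). That of *EEF2* was also lost without any other library but KD replicate 2, and that of *TUBB* without any KD or WT OE library. In DSM OE cells alone, *EEF2* was not called (log2 fold change -0.12, limma, adjusted p = 0.536). Some values varied within a line. *RPL13A*, a ribosomal protein gene, was at 9.33 in DSM OE replicate 2 and at 349 to 623 in the other 7 libraries. *RPL13A* and *TUBB* have near-identical copies that can share their reads. The members had no such disagreement between the control replicates, and their altered libraries were at 0 by selection.

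Likeness to the trefoil genes was measured as the Pearson r of log2(FPKM + 1) with the mean of the 3 members over 8 libraries, for 5200 genes with a control mean FPKM of at least 5. The 8 libraries share 4 lines and fall into control and the rest, so that r mainly reads that split. The closest 10 genes had r from 0.954 to 0.985, and they were selected on these levels, so no test is given for them. In order, the 9 reported here were *ATP6V0E2* (a proton pump subunit), *CLDN4* (a tight junction claudin), *MISP* (a spindle positioning protein), *HS6ST1* (a heparan sulfate sulfotransferase), *ELOVL5* (a fatty acid elongase), *ABHD6* (a lipase), *GNE* (an enzyme of sialic acid synthesis), *EEF1A2* (an elongation factor isoform) and *FAM83D* (a spindle protein). *SPDEF* was 11th, with r of 0.953.

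None of these was listed at 0 in an altered library. *MISP* came closest, at 11.1 and 13.7 in control, 0.295 and 0.442 in KD cells, 1.12 and 0.607 in WT OE cells, and 1.13 and 1.12 in DSM OE cells. Its altered mean was 6.34% of control. *EEF1A2* had control values of 9.31 and 11.95 against 0.563 to 1.98 in the altered libraries, 11.1% of control. The altered means of the other 7 reported were 50.3% to 67.1% of control. *CLDN4*, for example, had control values of 31.8 and 34.0 against 18.4 to 20.97 in the altered libraries.

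**Figure D4:**
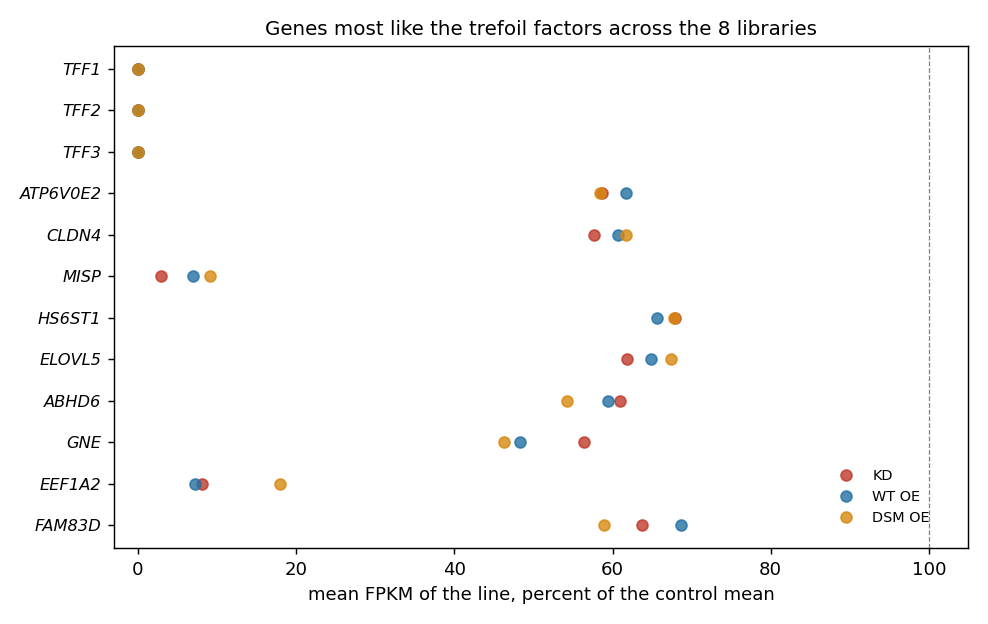
Mean FPKM of KD, WT OE and DSM OE as a percentage of the control mean (horizontal axis, dashed line at 100) for the 3 trefoil genes and 9 of the 10 genes most like them (vertical axis). Each point is the mean of 2 libraries. The trefoil genes lie at 0 in all 3 lines, *MISP* and *EEF1A2* lie under 18%, and the others lie between 46.3% and 68.7%.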

How the data were processed

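Poly A RNA of 8 cultures, 2 per line, was sequenced by the authors, whose methods give alignment to GRCh38 with HISAT2, assembly with StringTie and FPKM from Ballgown. The submitters' notes name GRCh38 and hg19. The FPKM values were used as deposited by the authors, and how transcripts were combined per gene was not given in the sources used here. Libraries were grouped by their genotype labels. The design text gives duplicate cultures and the treatment notes triplicates, and 2 libraries per line were analysed. P-values measure the spread between cultures of 1 line.

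Ensembl identifiers were matched to symbols for 35836 of 36991 genes. Positions are those of RefSeq genes on GRCh38.p14. The 10465 genes that reached an FPKM of 1 in 2 or more libraries were taken as log2(FPKM + 1), without scaling. The fold changes understate differences of low genes. The 4 line means were fitted with limma 3.58.1 in R 4.3.3 with a variance trend (4 residual degrees of freedom), tested on simulated data. The main comparison set the mean of the 3 altered lines against control, and each line was also compared with control. P-values are two-sided with Benjamini-Hochberg adjustment over all tested genes and a threshold of 0.05. The 3 line comparisons share the control libraries.

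The members and the gene lists were chosen with earlier results of these data known. Named genes were the members, *DAXX*, *ESR1*, the 2 nearest genes above 0 on each side of the cluster, up to 4 called genes per list by size of change (otherwise the 2 most abundant), and the 10 genes most like the members. Some genes that the rule takes are left out here. Genes named beyond this rule are marked, complete a small count or were picked by hand. Those picked by hand include *CXCR4*, *DMBT1*, *FCGBP*, *MX1*, *HIF1A*, *VIM* and *RPL13A*. Alternatives were a pseudocount of 0.1, no filter, median scaling, quantile normalization, a filter at a mean FPKM of 5, no variance trend, a replicate block, windows of 0.5 and 2 Mb and each library left out.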

Additional observations from a re-analysis of the deposited data

Results flagged for a closer look

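For some of the genes named beside the trefoil factors, the altered lines differed from each other when the difference itself was tested (limma, adjusted over all tested genes). The share of all tested genes with such a difference is not given here, so the number of these genes is not read as a result. *NRIP1* was higher in KD than in WT OE by 2.35 and than in DSM OE by 2.12 on the log2 scale (adjusted p = 0.000465 and 0.000604). *IGFBP4* differed by -1.26 between KD and WT OE and by -1.42 between KD and DSM OE (adjusted p = 0.00155 and 0.000876). *SNAI2* was higher in KD by 0.60 and 0.87 in the same order (adjusted p = 0.0181 and 0.00501). *ZEB1* differed by -0.64 and -0.95 in the same order (adjusted p = 0.021 and 0.00576). *F2RL3* differed by -0.78 between KD and WT OE (adjusted p = 0.0207), and *EEF2* by -0.66 between KD and DSM OE (adjusted p = 0.0165). *CXCR4*, which was picked by hand for this test, was higher than in DSM OE by 1.09 in KD and by 0.94 in WT OE (limma, adjusted p = 0.00435 and 0.0282). *AREG* differed by -0.66 between KD and WT OE, by -1.87 between KD and DSM OE and by -1.21 between WT OE and DSM OE (adjusted p = 0.0238, 0.000874 and 0.0194). *CA12* was higher in KD than in WT OE by 0.94 and than in DSM OE by 0.57 (limma, adjusted p = 0.00847 and 0.0265). That gene passed the filter only through KD and DSM OE, where it was higher than in WT OE, so these p-values add no support. *XBP1* differed by -0.55 between KD and WT OE and by -0.68 between KD and DSM OE (limma, adjusted p = 0.0143 and 0.00634). The trefoil genes gave no such difference, since all 3 were at 0 in each altered line, and neither *SPDEF* nor *AGR2* passed this test.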

How the results depend on the processing

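On the log2 scale, the mean of the altered libraries minus control was -3.02 for *TFF1*, -3.30 for *TFF2* and -4.42 for *TFF3*. With a pseudocount of 0.1 these became -6.17, -6.48 and -7.68, so their size is set by the pseudocount. Median scaling gave -3.05 for *TFF1* and -4.46 for *TFF3*, and quantile normalization -3.04 for *TFF1*. Without 1 control library they ran from -3.03 to -3.01, -3.38 to -3.22 and -4.43 to -4.41. Their sign was fixed in advance, since the members were picked at 0 in the altered libraries.

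The counts of 365 genes higher and 352 lower became 122 and 118 in a fit with a replicate block, and 238 of its 240 calls were among the 717 of the main fit. Same-numbered libraries did not deviate together (r from -0.06 to 0.04 over 6 pairs of lines), so the numbers were not taken as pairs. With 1 library left out, 114 to 208 genes were higher and 59 to 228 lower, in fits with fewer samples. The count of 0 called neighbours became 2 without the filter, *ABCG1* and *SLC37A1*, whose altered values were at or near 0. That count stayed at 0 within 0.5 and 2 Mb and with any library left out. The longest run of genes listed in control alone was 5 when the other lines had to be at exactly 0 and 6 when up to 5% of control was allowed, both chosen after seeing the data. Of the fold changes of single named genes, 27 lost and 2 gained the threshold over the other settings together, and 100 lost it with 1 library left out, where a lone library is assumed to vary like the others. Outside the block, the calls of *PPARG*, *PLAUR*, *EEF2* and *TUBB* were lost without the filter, that of *PPARG* with a pseudocount of 0.1, that of *PLAUR* under median scaling, and that of *TUBB* under quantile normalization and without the variance trend. The counts per gene are unknown, and 2 cultures of 1 line each limit every comparison.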
